A study of Rattus norvegicus with 10 samples.

Results

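The genes examined here are the enzymes that clear superoxide and peroxides in the liver cell, namely the superoxide dismutases Sod1, Sod2 and Sod3, catalase (Cat), the glutathione peroxidases Gpx1 and Gpx4, the peroxiredoxins Prdx1, Prdx3 and Prdx6, and thioredoxin (Txn1). They were chosen by name and not by a rule on their values, although earlier results of these data were known. A probe was taken where the accession printed for it in the scanner files belongs to one of the 10 symbols in RefSeq. This gave 12 of the 41012 probes on the array, 1 probe for each of 8 genes and a pair of probes for both Sod1 and Gpx1. Livers of 10 male Sprague Dawley rats were profiled on one-colour Agilent rat whole genome oligonucleotide arrays, with 1 rat on each array, to ask how the vesicant sulfur mustard (SM) alters liver transcripts and whether the plant extract mixture MSTF (salvianolic acids of Salvia miltiorrhiza with total flavonoids) alters that response. The 3 control rats received the solvent, propylene glycol, under the skin of the back. The 4 SM rats received a single subcutaneous dose of SM at 3.5 mg/kg in that solvent. The 3 SM + MSTF rats received the same dose of SM and, 1 h later, MSTF at 120 mg/kg into the stomach. All livers were taken 24 h after SM, no group received MSTF without SM, and the controls were not stated to have received water by gavage. The ages of the rats are not given in the sources used here.

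Superoxide, which leaks from the respiratory chain and is made by oxidases, is converted to hydrogen peroxide by the superoxide dismutases, of which Sod1 is the copper and zinc enzyme of the cytosol, Sod2 the manganese enzyme of mitochondria and Sod3 the secreted copper and zinc enzyme. Hydrogen peroxide is then removed by catalase in peroxisomes, by glutathione peroxidases such as Gpx1 and Gpx4, both selenoproteins that spend glutathione, and by the peroxiredoxins, most of which are recharged by thioredoxin. Glutathione is the thiol that sulfur mustard alkylates and depletes, and Prdx6 and the glutathione peroxidases are the members that use it as a reductant.

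None of the 10 genes was called changed in any of the 3 comparisons, where a call needed a limma adjusted p under 0.05 and a change of at least 1.5-fold. The fitted changes were small as well as uncalled. For all 10 genes, on the probe of highest signal, the 95% interval of the change lay within 1.5-fold in either direction. This was so in SM versus control (60.1% of all 22987 probes tested), when SM + MSTF was compared with control (59.6%) and when it was compared with SM (58.5%). These shares over all probes were not matched for signal. The probes of these genes are bright, the lowest group mean of the log2 signal being 9.92 for Sod2 in SM. The contrast with the shares is therefore not a result about these enzymes. Of all probes, 2.41% were called in SM versus control, 0% for SM + MSTF against control and 1.26% for SM + MSTF against SM. At an unadjusted limma p under 0.05, 1 of the 10 genes (Prdx6, higher) passed in SM versus control, against 16.4% of all probes, and 0 passed in the comparisons of SM + MSTF with control (9.54% of all probes) and with SM (15.9%). The methods' t-test called 0 of the 10 genes in any comparison at the same fold minimum, with or without adjustment. The groups did not overlap for Prdx6 alone in SM versus control (1 of 10 genes, against 18.0% of all probes), for Prdx6 alone in SM + MSTF versus control (15.4% of all probes) and for Sod1 alone in SM + MSTF versus SM (14.7%). The median log2 fold change of the 10 genes was 0.01, 0.00 and -0.05 in the 3 comparisons in that order, and that of all probes was 0.03, 0.00 and -0.02.

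**Figure D1:**
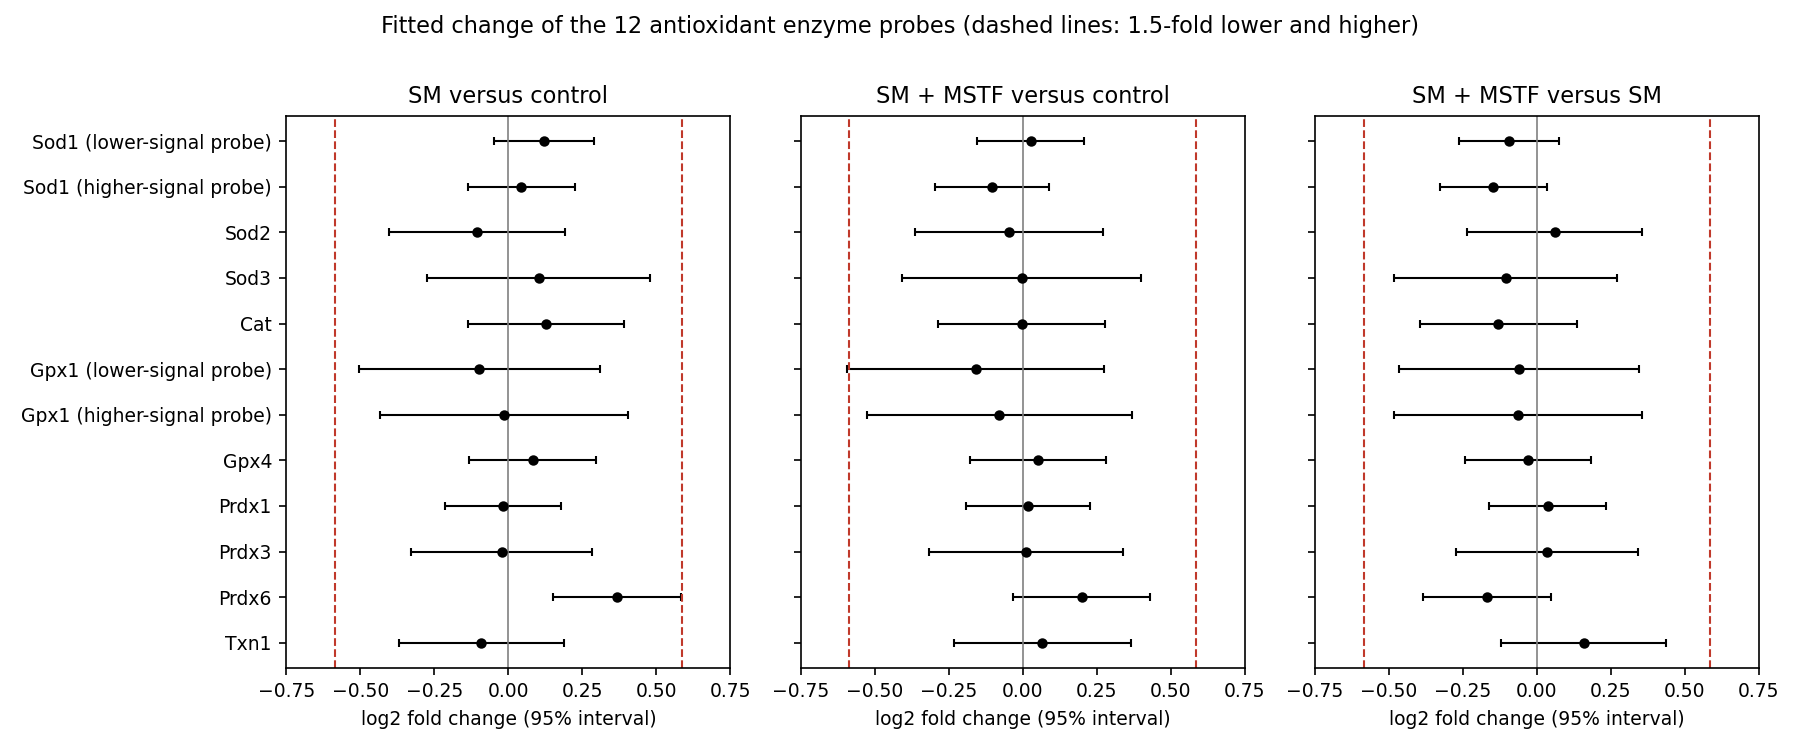
Fitted log2 fold change of each of the 12 probes with its 95% interval from limma, in the 3 comparisons (3 control, 4 SM and 3 SM + MSTF arrays), with dashed lines at 1.5-fold lower and higher. All intervals lie between the dashed lines except that of the lower-signal Gpx1 probe in SM + MSTF versus control, and the interval of Prdx6 in SM versus control lies above 0.

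All 12 probes were well above background on all 10 arrays and no spot was saturated. The within-group SD of the log2 signal ran from 0.036 for the lower-signal Sod1 probe to 0.26 for Gpx1, and 9 of the 12 probes varied less than the median probe (0.20). The median was taken over all probes tested, without matching for signal. At signals as high as those of Sod1 and Gpx1, quantile normalization sets the values in steps of rank. Over the arrays as a whole, 51.9% to 61.4% of probes were well above background. The hepatocyte markers, Alb and Apoa1 among them, were well above background on every array (10 of 10), with a summed intensity of 1866317 to 1955362 in control, 1852839 to 1959191 in SM and 1786556 to 1964043 in SM + MSTF. Of these 10 markers, Apoa2 alone was called, higher in SM versus control (0.69, limma adjusted p = 0.0263), where 2.41% of all probes were called. In SM + MSTF versus control 3 (Apoa2, Apoa1 and Ttr) had an unadjusted limma p under 0.05, at 0.67, -0.43 and -0.49, against 9.54% of all probes. The 4 SM arrays lay on 1 slide of their own (slide 2), the 3 controls shared slide 1 with SM + MSTF replicate 3, and SM + MSTF replicates 1 and 2 were on slide 3, so that SM and slide 2 cannot be told apart. In whole liver, fewer cells of a type and less RNA per cell cannot be told apart either.

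The antioxidant response element is the DNA element through which the factor Nrf2 acts on genes of the oxidative stress response. Its core, TGACNNNGC on either strand, was searched in the 250 bases before each RefSeq transcription start of the rat assembly GRCr8, and 8 of the 10 genes had such a window (10 windows, since Gpx4 has several). Prdx6 and Sod3 had no window and were not searched. The core was found in 2 of the 8 genes, Sod2 and Prdx1. By window this is 2 of the 10, against 10.1% of all 33469 windows. Both windows are shown because they hold the match, with the core in capitals. In both windows it lies on the strand opposite to the gene, so it reads there as the reverse complement.
Sod2 (chr1:50050169-50050418, minus strand): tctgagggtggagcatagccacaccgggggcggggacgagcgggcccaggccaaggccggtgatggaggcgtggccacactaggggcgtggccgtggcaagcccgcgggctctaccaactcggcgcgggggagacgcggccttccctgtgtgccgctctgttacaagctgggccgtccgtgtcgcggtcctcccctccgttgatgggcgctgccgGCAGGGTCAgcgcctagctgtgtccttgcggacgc
Prdx1 (chr5:135383656-135383905, plus strand): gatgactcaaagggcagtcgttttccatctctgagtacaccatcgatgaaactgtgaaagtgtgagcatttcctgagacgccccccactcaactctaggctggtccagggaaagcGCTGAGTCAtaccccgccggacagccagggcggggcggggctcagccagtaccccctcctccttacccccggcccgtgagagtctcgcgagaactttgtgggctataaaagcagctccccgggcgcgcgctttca
The match begins 35 bases before the Sod2 start and 135 bases before the Prdx1 start. These arrays did not measure binding there, and a match is only a match of letters. The probe positions in the scanner files refer to an earlier assembly and are left out.

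Prdx6, the peroxiredoxin that reduces phospholipid hydroperoxides with glutathione, showed the largest fitted change of the 10 genes. Its log2 signal was 13.08, 12.98 and 12.92 on the control arrays, 13.46, 13.40, 13.19 and 13.38 on the SM arrays, and 13.24, 13.09 and 13.24 on the SM + MSTF arrays. Every SM array and every SM + MSTF array lay above all 3 controls, and the lowest SM array, replicate 3, lay among the SM + MSTF arrays. The log2 fold change in SM versus control was 0.37 with a standard error (SE) of 0.10 (limma adjusted p = 0.0846), which is 1.29-fold with a 95% interval of 1.11 to 1.498, so it was not called. The change was 0.20 in SM + MSTF versus control (SE 0.10, limma adjusted p = 0.574), and SM + MSTF differed from SM by -0.17 (SE 0.10, limma adjusted p = 0.406). Over 23 alternative settings the value in SM versus control stayed between 0.33 and 0.43 and its adjusted p ran from 0.0494, with another background correction (normexp), to 0.251, without control replicate 2. Within slide 1, the single SM + MSTF array (13.24) lay above the 3 controls. The erythroid cell markers, of which 5 could be tested, were all fitted higher in SM than in control with 0 called and 2 at an unadjusted limma p under 0.05. Of all probes, 55.9% were fitted higher, 2.41% were called and 16.4% had an unadjusted limma p under 0.05. The summed intensity of these markers was 5368 to 15809 in control, 7075 to 22468 in SM and 7815 to 18177 in SM + MSTF, and their part in the Prdx6 values was not tested.

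The signals of the superoxide dismutases were nearly level across the groups. On the Sod1 probe of higher signal, the log2 signal was 17.54, 17.42 and 17.48 in control, 17.49, 17.49, 17.56 and 17.56 in SM, and 17.46, 17.36 and 17.31 in SM + MSTF. The SM + MSTF arrays lay below all SM arrays, by 0.15 on average (log2 fold change -0.15, standard error 0.08, limma adjusted p = 0.392), a change of 0.904-fold with an interval of 0.797 to 1.02. The other Sod1 probe gave 16.82, 16.83 and 16.85 in control, 16.97, 16.99, 16.93 and 16.92 in SM, and 16.92, 16.84 and 16.82 in SM + MSTF. On that probe it was SM and control that did not overlap (0.12, standard error 0.08, limma adjusted p = 0.478), so the pair of probes did not single out the same groups, and the difference between them, centred on its mean, ran from -0.14 to 0.09 over the 10 arrays. After quantile normalization the arrays share a common set of values. On the higher-signal Sod1 probe, SM replicates 1 and 2 took the same value, as did SM replicates 3 and 4. Sod1 differences of this size can therefore be steps of rank among bright probes, which was not tested.

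For mitochondrial Sod2, the log2 signal was 10.04, 9.97 and 10.07 in control, 9.84, 9.99, 9.93 and 9.93 in SM, and 9.90, 9.73 and 10.32 in SM + MSTF. The SM + MSTF group held both the highest and the lowest array, and its SD of 0.31 compares with 0.05 in control and 0.06 in SM. The change in SM versus control was -0.11 (interval of the fold 0.757 to 1.14). Extracellular Sod3 was at 11.95, 11.87 and 11.67 in control, 11.74, 11.91, 12.08 and 12.01 in SM, and 11.77, 12.23 and 11.49 in SM + MSTF. Here too both extremes lay in SM + MSTF, and the change in SM versus control was 0.10 with a fold interval of 0.826 to 1.39.

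Catalase, the peroxisomal enzyme that splits hydrogen peroxide into water and oxygen, was at 13.53, 13.38 and 13.51 in control, 13.50, 13.71, 13.52 and 13.67 in SM, and 13.63, 13.56 and 13.22 in SM + MSTF. Its change was 0.13 in SM versus control (SE 0.12, limma adjusted p = 0.648), 0.00 in SM + MSTF versus control and -0.13 between SM + MSTF and SM, with all groups overlapping. The fold intervals were 0.909 to 1.31, 0.820 to 1.21 and 0.761 to 1.10.

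Gpx1, the cytosolic glutathione peroxidase, spread most over the arrays of the 10 genes, by 1.77-fold from the lowest array to the highest. On its probe of higher signal the log2 signal was 17.42, 17.16 and 17.61 in control, 17.27, 17.42, 17.53 and 17.29 in SM, and 17.70, 17.37 and 16.87 in SM + MSTF. Both extremes again belonged to SM + MSTF, where the SD was 0.41 against 0.23 in control and 0.12 in SM. The other Gpx1 probe followed it closely, with 17.68, 17.32 and 16.85 in SM + MSTF and a centred difference of -0.09 to 0.12 over the 10 arrays, so this spread was measured by both probes. The change in SM versus control was -0.02 on the higher-signal probe (fold interval 0.740 to 1.32) and -0.10 on the other (0.705 to 1.24). In SM + MSTF versus control it was -0.08 (0.694 to 1.29) and -0.16 (0.663 to 1.21), and the last of these is the interval that reached past 1.5-fold.

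Gpx4, the peroxidase that repairs oxidised lipids in membranes, differed by 0.08 in SM versus control (fold interval 0.913 to 1.23), 0.05 in SM + MSTF versus control (0.885 to 1.21), and SM + MSTF differed from SM by -0.03 (0.844 to 1.14). Its highest and its lowest arrays were both controls, at 14.21 and 13.92, with the 7 arrays of the SM and SM + MSTF groups from 14.01 to 14.18 between them. Prdx1, the abundant cytosolic peroxiredoxin, had the narrowest spread of the 10 genes on the highest-signal probe of each, 1.18-fold from 14.75 on SM replicate 1 to 14.99 on SM + MSTF replicate 2. Its fold intervals were 0.862 to 1.13 in SM versus control, 0.875 to 1.17 in SM + MSTF versus control and 0.895 to 1.18 for SM + MSTF against SM. The mitochondrial Prdx3 ran from 11.53 to 11.96 and both ends were controls, with changes of -0.02, 0.01 and 0.04 in the 3 comparisons.

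Thioredoxin, the small protein that returns electrons to the peroxiredoxins, was at 15.64, 15.83 and 15.95 in control, 15.54, 15.64, 15.80 and 15.87 in SM, and 15.75, 15.80 and 16.06 in SM + MSTF. The groups overlapped throughout. Its change was -0.09 in SM versus control (fold interval 0.774 to 1.14), 0.07 in SM + MSTF versus control (0.852 to 1.29) and 0.16 in SM + MSTF versus SM (0.920 to 1.35, limma adjusted p = 0.540).

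**Figure D2:**
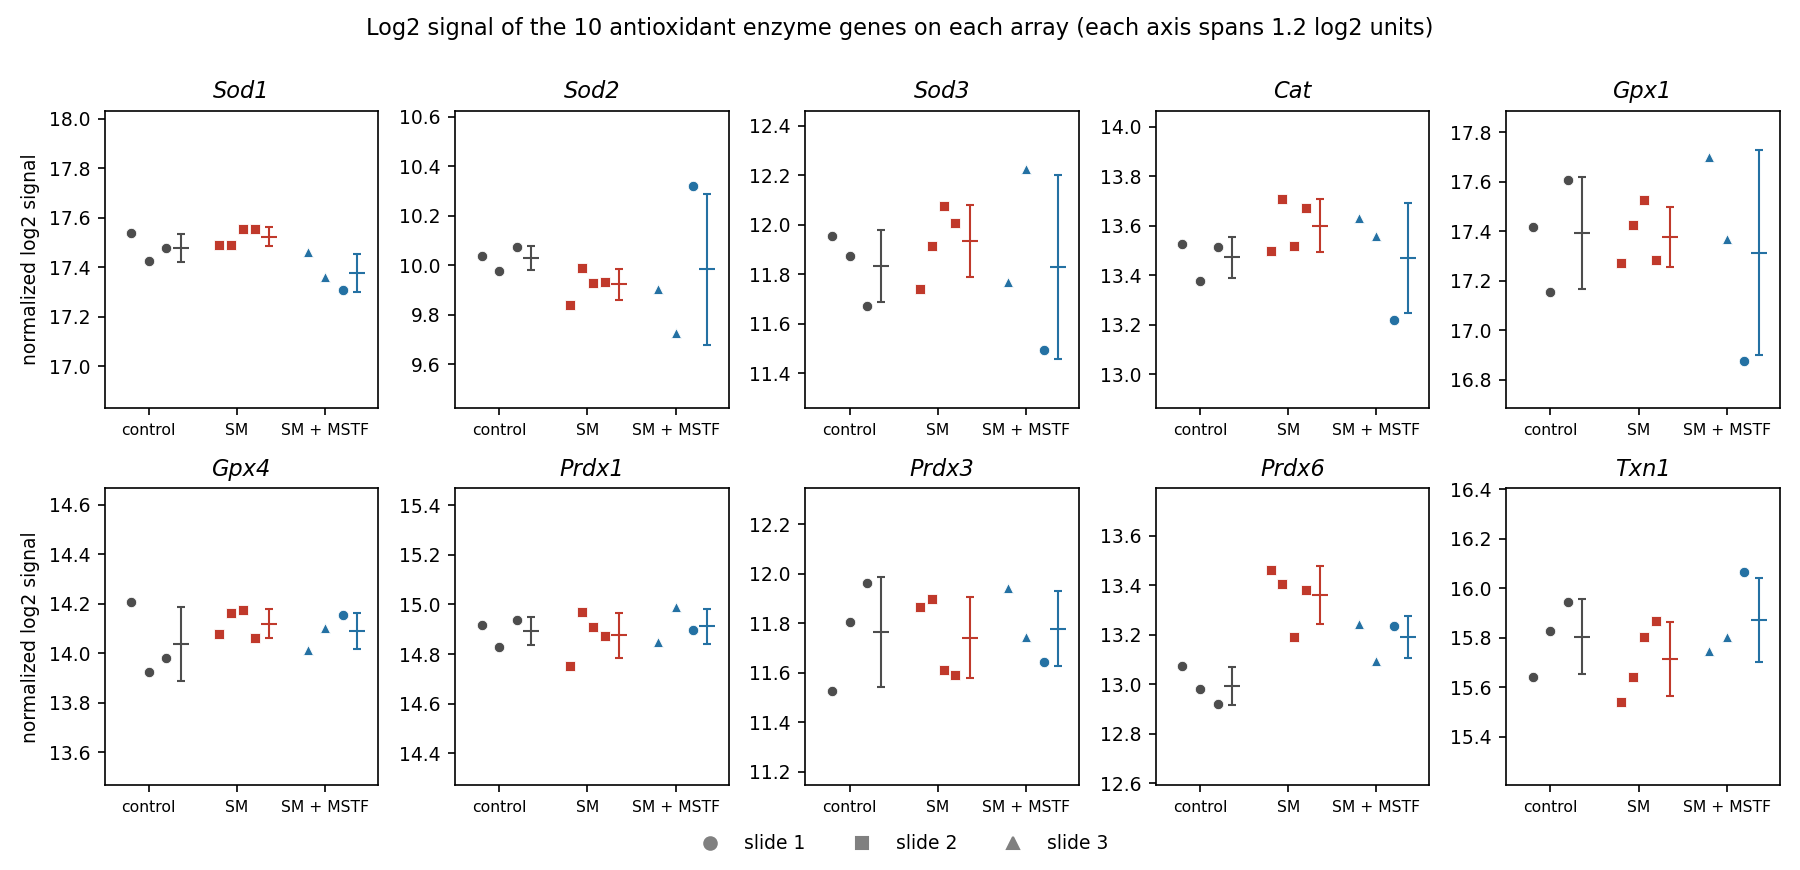
Normalized log2 signal of the 10 genes on each array (highest-signal probe of each gene), by group, with each axis spanning 1.2 log2 units, the marker shape giving the slide, and the bar beside the points giving the group mean ± SD (n = 3 control, 4 SM, 3 SM + MSTF). Prdx6 is the gene whose SM arrays all lie above the controls, and in Sod2, Sod3, Cat and Gpx1 the SM + MSTF points spread widest, with replicate 3 at one end.

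A single array, SM + MSTF replicate 3, carried much of the spread in its group. It held the lowest value over all 10 arrays for 4 of the 10 genes (Sod1, Sod3, Cat and Gpx1) and the highest for 2 (Sod2 and Txn1). It is the only array of its group on slide 1, beside the controls. Set against those controls within slide 1, it differed by -0.52 for Gpx1, -0.34 for Sod3, -0.25 for Cat and 0.29 for Sod2, none of which was called. Without it, SM + MSTF versus control was at 0.14 for Gpx1, 0.16 for Sod3, 0.12 for Cat and -0.22 for Sod2, and again none was called. With the whole group the change was -0.08 for Gpx1, -0.003 for Sod3, -0.003 for Cat and -0.05 for Sod2. The signs without the array are opposite to those within slide 1 in each of them. This follows from averaging to a group change near 0 and is not a separate observation. Sod1 kept its sign, at -0.17 within slide 1 and -0.07 without the array, and Txn1 did not, at 0.26 and -0.03. The part of this array in the group values of these genes is thus measured, while its cause was not tested.

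The enzymes work within a wider system of other peroxidases, thiol reductases, metal and selenium supply, sources of superoxide and peroxide, peroxisome assembly and the Nrf2 axis. Of 91 genes on these 6 lists, 81 had a probe and 70 were tested. In SM versus control 1 of the 70 was called, the lower one Slc31a1, against 2.41% of all probes. At an unadjusted limma p under 0.05, 7 were higher and 4 lower in SM versus control, against 16.4% of all probes. In SM + MSTF versus control 0 were called (0% of all probes), with 1 higher and 3 lower at an unadjusted limma p under 0.05 (9.54% of all probes). For SM + MSTF against SM 0 were called (1.26% of all probes), with 2 higher and 2 lower at an unadjusted limma p under 0.05 (15.9% of all probes). The methods' t-test called 1, 0 and 0 genes after adjustment, against 1.39%, 0% and 0.0566% of all probes.

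Slc31a1, the copper importer of the plasma membrane, which brings in the metal that Sod1 and Sod3 need, fell in SM. Its log2 signal was 9.54, 9.41 and 9.29 on the control arrays, 7.31, 7.29, 7.54 and 7.67 on the SM arrays, and 7.57, 7.67 and 9.08 on the SM + MSTF arrays. The log2 fold change in SM versus control was -1.96 (standard error 0.31, interval -2.67 to -1.26, limma adjusted p = 0.0193). In SM + MSTF versus control it was -1.30 (SE 0.34, limma adjusted p = 0.405), and against SM it was 0.66 (SE 0.31, limma adjusted p = 0.339), or 0.17 without SM + MSTF replicate 3. The values also divide by slide, with the 4 arrays of slide 1 from 9.08 to 9.54 and the 6 arrays of slides 2 and 3 from 7.29 to 7.67. Within slide 1 the SM + MSTF array differed from the controls by -0.34, whereas without that array SM + MSTF versus control was -1.79 (limma adjusted p = 0.000891, called). Since all controls lay on slide 1, slide and treatment cannot be told apart for the call in SM versus control. The call held in 16 of 23 settings, 5 of the 10 that left out single arrays among them. The limma adjusted p went down to 9.54e-05 without SM + MSTF replicate 3 and 0.000355 with only SM and control in the fit. This count overstates how far the call was tested. Settings without the fold minimum or the adjustment only relax the main rule and could not lose it. Slc31a1 has 1 probe, so averaging over a gene's probes left its value unchanged. SM + MSTF replicates 1, 2 and 3 are not among the arrays compared. With a control or SM array left out, the call held only without SM replicate 2 (limma adjusted p = 0.0425) or SM replicate 4 (0.0411). It was lost with the replicate block, with the slide as a random block (limma adjusted p = 0.0622), and without control replicate 1 (0.0744), 2 (0.0814) or 3 (0.0628), SM replicate 1 (0.0588) or SM replicate 3 (0.0515), while its value stayed between -2.03 and -1.54 over all 23 settings. For SM against control, 0.235% of all probes passed with the replicate block and 0.370% with the slide block, against 2.41% in the main fit. None of the other 9 tested genes of the copper and selenium list was called, and the median of the list was 0.05.

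**Figure D3:**
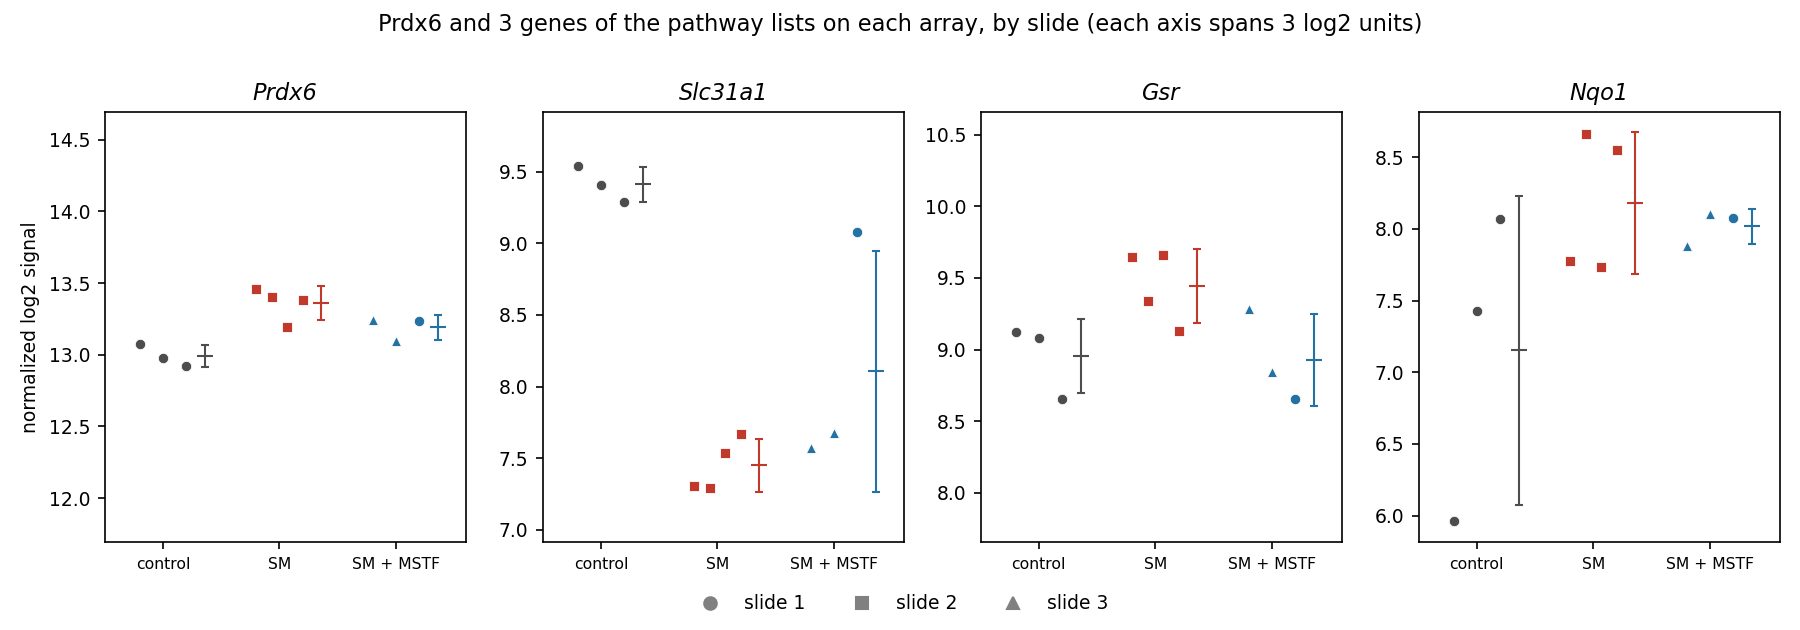
Normalized log2 signal of Prdx6, Slc31a1, Gsr and Nqo1 on each array by group, each axis spanning 3 log2 units, with the marker shape giving the slide and the bar the group mean ± SD (n = 3, 4 and 3). The Slc31a1 points of slide 1, the controls and SM + MSTF replicate 3, lie from 9.08 to 9.54 and those of slides 2 and 3 from 7.29 to 7.67.

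The list of thiol reductases holds genes of the thioredoxin and glutathione cycles that recharge peroxiredoxins and peroxidases. It also holds others that do not, such as Txnip and Msra. Of its 15 tested genes, 11 were fitted higher in SM than in control, with 0 called, 2 at an unadjusted limma p under 0.05 and a median of 0.12. Of all probes, 55.9% were fitted higher and 16.4% had an unadjusted p under 0.05. Gsr, glutathione reductase, had the largest value of the list, 0.49 in SM versus control (SE 0.19, limma adjusted p = 0.243). It was at 9.12, 9.08 and 8.66 in control, 9.65, 9.34, 9.66 and 9.13 in SM, and 9.28, 8.85 and 8.65 in SM + MSTF, so that all SM arrays lay above the controls, with SM replicate 4 only just above the highest control. In SM + MSTF versus SM it was at -0.52 (SE 0.19, limma adjusted p = 0.249). The other gene at an unadjusted p under 0.05 was Txnrd1, the cytosolic thioredoxin reductase, at 0.33 in SM versus control (limma adjusted p = 0.142) and -0.27 for SM + MSTF against SM (limma adjusted p = 0.258), and it is named after its values were seen. Its probes disagreed, since the other 2 were at -0.12 and 0.22 in SM versus control and at 0.04 and 0.08 for SM + MSTF against SM, and none of the 3 was called. In SM + MSTF versus SM, 10 of the 15 were fitted lower, against 53.6% of all probes, with 0 called and a median of -0.17. Glrx, glutaredoxin, was the largest of the list in SM + MSTF versus control, at 0.31 (limma adjusted p = 0.700). That value rested on SM + MSTF replicate 3, being 0.017 without this array and 0.88 for this array alone against the controls of slide 1.

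The 6 tested genes among the other peroxidases included 4 fitted lower in SM, against 44.1% of all probes, with 0 called and a median of -0.21. Gpx8, a peroxidase of the endoplasmic reticulum, was at -0.67 in SM versus control (SE 0.20, limma adjusted p = 0.124) and at -0.47 in SM + MSTF versus control (limma adjusted p = 0.532), or -0.40 with normexp in the former and -0.28 without control replicate 1 in the latter. Its control arrays ran from 7.08 to 7.71 and its SM arrays from 6.44 to 7.09. Named after its values were seen, Gpx7, the related peroxidase of the same compartment, was at -0.35 in SM versus control (SE 0.09, limma adjusted p = 0.0769) and at -0.31 in SM + MSTF versus control (limma adjusted p = 0.423). Also named after its values were seen, Prdx2, a cytosolic peroxiredoxin, was at 0.22 (limma adjusted p = 0.195) and 0.20 (limma adjusted p = 0.498) in these comparisons. Prdx4, another peroxiredoxin named in this way, went the other way, at -0.18 (limma adjusted p = 0.473) and -0.37 (limma adjusted p = 0.424). At an unadjusted limma p under 0.05, 1 of the 6 was higher and 2 lower in both comparisons, against 16.4% and 9.54% of all probes.

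Of the genes that make superoxide or peroxide, 18 were tested, and 0 were called in any comparison. The largest value in SM versus control was that of Duox1, an oxidase that makes hydrogen peroxide, at 0.73 (SE 0.34, limma adjusted p = 0.329), and at 0.24 with normexp. Acox2, a peroxisomal oxidase of bile acid intermediates, had the largest value in SM + MSTF versus control, at 0.68 (SE 0.32, limma adjusted p = 0.542), and at 0.29 within slide 1. Cybb, the phagocyte NADPH oxidase subunit, was at 0.53 in SM + MSTF versus SM (SE 0.19, limma adjusted p = 0.243), and at 0.30 with normexp. The Kupffer cell and macrophage markers, 9 of 9 well above background on every array, were in that comparison all fitted higher, with 0 called and 4 at an unadjusted limma p under 0.05. Of all probes, 46.4% were fitted higher, 1.26% were called and 15.9% had an unadjusted limma p under 0.05. The summed intensity of these markers was 108133 to 138726 in control, 70611 to 133148 in SM and 114159 to 144515 in SM + MSTF. Their part in the Cybb value was not tested.

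Catalase is carried into peroxisomes by the peroxin proteins, and 14 peroxin genes were tested with 0 called. Pex3, a membrane peroxin, was the largest in SM versus control, at -0.32 (SE 0.09, limma adjusted p = 0.1003), with all SM arrays below the controls. Pex11a, which shapes the peroxisome membrane, was at 0.38 in SM + MSTF versus control on one probe and 0.44 on its other probe, and neither was called. The value on the first of these was 0.12 without SM + MSTF replicate 3, 0.14 without control replicate 1 and 0.89 within slide 1.

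Of the Nrf2 axis, 7 genes were tested, 5 were fitted higher in SM, against 55.9% of all probes, with 0 called, and the median was 0.29, against 0.03 for all probes. Nfe2l2, the gene of Nrf2 itself, was lower, at -0.19 (limma adjusted p = 0.779), and is named after its values were seen. The list holds this gene as well as readouts, so its direction is not a measure of Nrf2 activity. For SM + MSTF the list median was 0.03 relative to control and -0.07 relative to SM (all probes 0.00 and -0.02). The largest value was that of Nqo1, a quinone reductase widely used as a readout of Nrf2, at 1.03 in SM versus control (SE 0.44, limma adjusted p = 0.281) and 0.87 in SM + MSTF versus control (SE 0.47, limma adjusted p = 0.590). Its control arrays were at 5.96, 7.43 and 8.07 and its SM arrays at 7.78, 8.66, 7.73 and 8.55, so the groups overlapped and control replicate 1 lay far below the other controls. Without that array the Nqo1 value against control was 0.43 for SM and 0.27 for SM + MSTF. Hmox1, the haem oxygenase of the stress response, ran from 9.40 to 11.47 in SM, and its value in SM + MSTF versus SM was 0.40 (SE 0.40, limma adjusted p = 0.635), from 0.15 to 0.84 with single arrays left out, the highest without SM replicate 4.

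**Figure D4:**
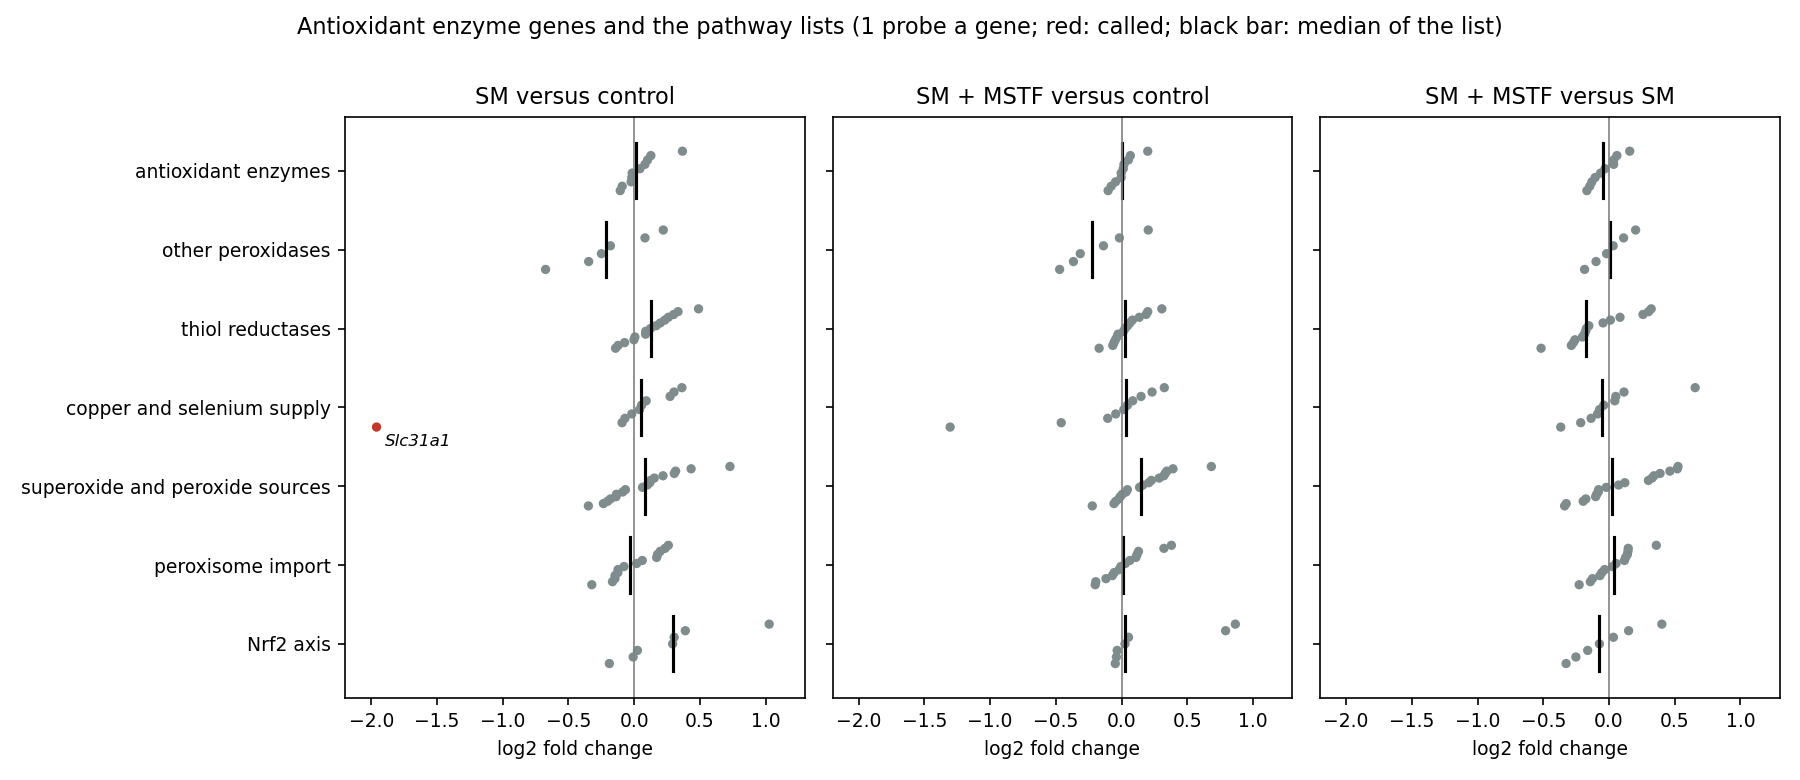
Log2 fold change of every tested gene of the antioxidant enzymes and of the 6 surrounding lists (1 probe a gene) in the 3 comparisons, with a black bar at the median of each list and called genes in red. The 10 antioxidant enzymes lie between -0.17 and 0.37 in all panels, and Slc31a1 in SM versus control is the only called gene.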

How the data were processed

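Total RNA of each liver was labelled with Cy3 and hybridised by the authors to 1 array, which was read with Feature Extraction 10.7. The deposited scanner files give, for each spot, the intensity after background subtraction, a flag for being well above background, and flags for saturation and uneven spots. The deposited log2 values, quantile normalized by the authors in GeneSpring, served as an alternative. Here control and uneven spots (0 to 4 per array) were dropped, the deposited intensity was brought to common quantiles across the 10 arrays, and log2 values of spots of the same probe were averaged (41012 probes). The 22987 probes that stood well above background on all arrays of some group were fitted over all 3 groups with limma 3.58.1 in R 4.3.3, tested on simulated data first, with Benjamini-Hochberg adjustment over all of them, and called at an adjusted p under 0.05 and at least 1.5-fold. A fold change is thus relative to the whole array, and a shift of all transcripts would not be seen. Genes were named through RefSeq accessions (17512 probes), and a gene's count rests on its probe of highest mean signal. The genes and lists were chosen with earlier results of these data known. Genes named are all 10 enzymes, each called gene of the 6 lists and the gene with the largest fitted change per list and comparison, and others are named as chosen after their values were seen. Replicates are separate rats, and precision is limited by their number.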

Additional observations from a re-analysis of the deposited data

Results flagged for a closer look

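Of 21 genes tested for a stray array among the 4 SM arrays, 1 had one. Glrx was at 12.19 on SM replicate 2, while the next SM array was at 11.96 and the lowest at 11.91, so that the gap was 0.831 of the whole range. Chance alone gives such a gap in about 1 in 20 groups. The cause was not tested.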

How the results depend on the processing

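No antioxidant enzyme was called in any comparison under any alternative run (0 of 10 throughout, also when each array was left out in turn). Every run with the fold minimum had to give this, since fitted changes stayed between -0.52 (Gpx1) and 0.43 (Prdx6), short of 1.5-fold. With normexp, Prdx6 in SM versus control reached a limma adjusted p of 0.0494 and was held back by the fold minimum. Without that minimum, 2.80%, 0% and 1.36% of all probes were called in the 3 comparisons. Of the surrounding genes, the 1 called in SM versus control became 3 of 70 by unadjusted limma p (5.61% of all probes) or by the methods' t-test without adjustment (4.92%), and 0 when the slide was a random block (0.370%). The 0 called in SM + MSTF versus control became 1 by unadjusted limma p (Slc31a1, with 3.01% of all probes called) and 2 by the unadjusted t-test (Acox2 and Hmox1, with 1.24%). With the slide as a fixed block, this comparison rests on SM + MSTF replicate 3 alone, since only slide 1 held both groups. Scly, of the copper and selenium list, was at -1.25 there and at -0.46 in the main fit. With single arrays left out these counts ran from 0 to 1 in each comparison, the call in SM + MSTF versus SM being Rac2 without SM replicate 4 and that in SM + MSTF versus control Slc31a1 without SM + MSTF replicate 3. Replicate numbers showed no clear pairing of the samples. Correlations of same-numbered deviations ran from -0.0991 to 0.169, with 3 of 9 over 0.1. Those of differently numbered arrays ran from -0.232 to 0.181, with 6 of 24 over 0.1. With a replicate block, 0 enzymes and 0 surrounding genes were called in all comparisons. Under this block the shares of all probes called were only 0.235%, 0% and 0.278%, so counts of 0 say little about these genes. Slc31a1 was then at -2.03 for SM against control (limma adjusted p = 0.0623). The same value, -2.03, was fitted without SM replicate 4, the only array with that number.

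The uncalled values near 0 changed sign as follows, and the cause was not tested. With scaling to the 75th percentile, SM versus control was 0.058 for Gpx1, 0.13 for Prdx1, 0.0074 for Prdx3 and 0.063 for Txn1, and SM + MSTF versus SM was -0.099 for Prdx1. With normexp, Prdx1 was at 0.022, -0.0039 and -0.026 in the 3 comparisons. With the deposited log2 values, Sod3 in SM + MSTF versus control was at 0.00026. With the replicate block, SM versus control was 0.015 for Gpx1 and 0.028 for Prdx3, and SM + MSTF versus SM was -0.015 for Prdx3. In SM + MSTF versus control, the slide as a random block gave 0.0012 for Sod2 and -0.0059 for Prdx3, and the slide as a fixed block or within slide 1 gave 0.29 and -0.12. With each array left out, SM versus control ran from -0.13 to 0.091 for Gpx1, -0.051 to 0.023 for Prdx1 and -0.14 to 0.077 for Prdx3. SM + MSTF versus control ran from -0.22 to 0.082 for Sod2, -0.20 to 0.16 for Sod3, -0.084 to 0.12 for Cat, -0.27 to 0.14 for Gpx1, -0.0052 to 0.14 for Gpx4, -0.021 to 0.050 for Prdx1, -0.11 to 0.11 for Prdx3 and -0.030 to 0.14 for Txn1. SM + MSTF versus SM ran from -0.11 to 0.19 for Sod2, -0.30 to 0.063 for Sod3, -0.26 to 0.16 for Gpx1, -0.063 to 0.0078 for Gpx4, -0.0052 to 0.068 for Prdx1 and -0.047 to 0.10 for Prdx3.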
